A study of Rattus norvegicus with 23 samples.

Results

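MAP kinase phosphatases and feedback inhibitors of the ERK pathway were measured in 2 rat kidney cell lines, NRK-52E and NRK-49F, at pH 7.4 and at pH 6.0. The genes were chosen by name from the annotated count table of the rat cells. Of the 10 genes listed, 9 had a row under their symbol (Dusp4, Dusp5, Dusp6, Dusp10, Spry1, Spry2, Spry4, Spred1 and Etv4), out of 30452 genes in the table, and Dusp1 was not analysed here. All 9 passed the filter on low counts, which 14777 genes passed. NRK-52E cells (NRKE in the labels, described as epithelial) and NRK-49F cells (NRKF, described as fibroblasts) are established lines from rat kidney, without any genetic change in these experiments, and each stands for its cell type as 1 line. Serum was withheld from every sample for 24 h, and a 48 h incubation followed, in medium of pH 7.4 as the control or in medium brought to pH 6.0 with HCl. Poly(A) RNA was sequenced in n = 6 samples of NRK-52E cells at each pH, n = 6 of NRK-49F cells at pH 7.4 and n = 5 at pH 6.0. The labels place the samples in 2 sample groups per line, 1 and 3 for NRK-52E and 4 and 6 for NRK-49F. They do not say what a sample group is. Group 4 held 2 samples at pH 6.0 and each other group held 3 at each pH. The labels do not say whether samples were separate cultures, so that p-values measure the spread between these samples, which may be technical in part.

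ERK and p38 are MAP kinases, enzymes at the end of kinase cascades that carry signals from growth factor receptors and from cellular stress to the nucleus. Active ERK switches on genes whose products dampen it again. Dual-specificity phosphatases of the Dusp family remove the activating phosphates from MAP kinases, Sprouty and Spred proteins act further upstream, below the receptor, and Etv4 is a transcription factor of the PEA3 group of ETS proteins that is commonly used as a readout of ERK signalling. The abundance of these mRNAs is therefore often read as a trace of pathway activity. The data hold mRNA levels alone, without any measurement of phosphorylated ERK or p38.

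Promoter sequences of RefSeq (rat assembly GRCr8, 250 bases before to 50 bases after the start of each gene) were matched by symbol to 7 of the 9 genes, with 8 sequences. Those of Dusp4 and Etv4 were not used here. They were searched on both strands for the core of ETS factor sites (CGGAAG), for the AP-1 site (TGANTCA), for the cyclic AMP response element (TGACGTCA) and for the CArG box bound by serum response factor. The ETS core was in 16.6% of 33469 rat promoters of this length and, among these genes, in that of Dusp6. The CArG box was in 1.64% of the promoters and, among these genes, in that of Dusp5, which held a pair of adjoining boxes that do not overlap. The AP-1 site (7.33% of all promoters) and the cyclic AMP response element (1.83%) were in 0 of the 7. These matches describe letters in the windows and say nothing of binding. The stretches before the start of Dusp6 and Dusp5 are shown because these were the genes with a match. A link between the matches and the response to pH was not tested. The 250 bases before the start of Dusp6 lie at chr7:35979354-35979603 on the plus strand, with the reverse complement of the ETS core in capitals, and those of Dusp5 at chr1:262543524-262543773 on the plus strand, with the CArG boxes in capitals.
Dusp6: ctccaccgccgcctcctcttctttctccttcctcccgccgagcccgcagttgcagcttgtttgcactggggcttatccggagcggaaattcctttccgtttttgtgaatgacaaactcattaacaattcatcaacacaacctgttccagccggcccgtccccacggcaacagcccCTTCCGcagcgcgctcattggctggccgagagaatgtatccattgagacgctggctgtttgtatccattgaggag
Dusp5: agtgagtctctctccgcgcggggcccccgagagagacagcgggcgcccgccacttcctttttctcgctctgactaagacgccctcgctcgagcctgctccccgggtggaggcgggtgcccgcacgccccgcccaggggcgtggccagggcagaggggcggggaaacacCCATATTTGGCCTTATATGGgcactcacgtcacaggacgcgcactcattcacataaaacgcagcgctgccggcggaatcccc
In Dusp6 the capitals span bases 75 to 70 before the start, and in Dusp5 they span bases 82 to 63.

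The deposited values were raw counts of read pairs on the exons of each gene. Total counts per sample ranged from 16412564 to 34250535, with a median of 19830621 over the 23 samples. Levels are given as FPM, the fragments per 1000000 of the library size as scaled by edgeR's TMM method, at which 3 counts came to 0.0839 to 0.203 FPM, and they are not corrected for gene length. The number of read pairs sets the precision of a level, and such limits cover counting error only. The labels of the lines were checked against marker lists. Of 8 epithelial markers, 6 were in the table and 1, Krt8, passed the filter, with 499 FPM in NRK-52E and 839 FPM in NRK-49F cells at pH 7.4. Cdh1, the gene of E-cadherin, had 0 to 12 counts and Epcam 0 to 1 count in the NRK-52E samples. Crb3, a gene of apical polarity, went with the label at a low level, with 7 to 25 counts (mean 0.590 FPM) in the NRK-52E samples at pH 7.4 against 0 in the NRK-49F samples, and Cdh1 had 0.160 against 0.0286 FPM. Most of the epithelial list was thus at or near 0 in NRK-52E cells, and the lines are called by their names. Of 8 fibroblast markers, 7 were tested and 6 were higher in NRK-49F cells at pH 7.4, such as Pdgfra with 306 FPM against 1.83 FPM (0.679 to 4.73) in NRK-52E cells, while Col3a1 was higher in NRK-52E cells (6149 against 1212 FPM). From Pdgfra, Vcam1 and Col1a2, signal of the kind found in NRK-49F cells was estimated at 0.10% to 1.47% in the NRK-52E samples of pH 7.4 and at 0 to 0.0201% in those of pH 6.0. Subtraction of that share changed no call of the 9 genes.

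**Figure D1:**
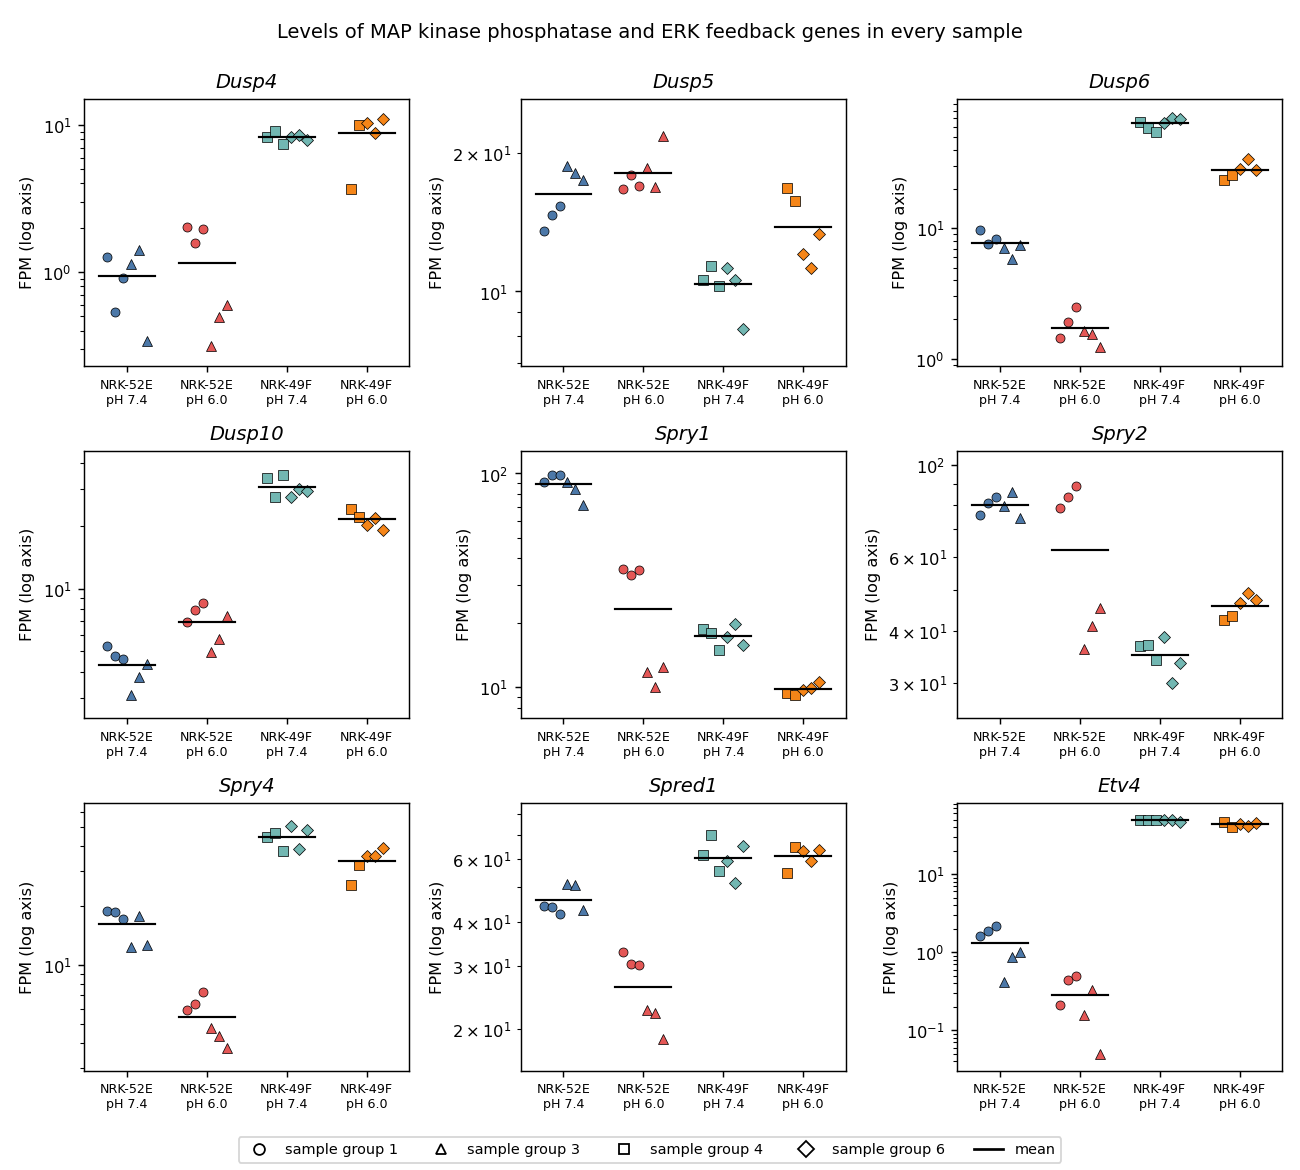
Level of each gene in every sample, in FPM on a log axis, by cell line and pH. Symbols give the sample group and lines the mean. Dusp6 and Spry1 were lower at pH 6.0 in both lines with no overlap between the pH values, and Spry1 and Spry2 of NRK-52E cells at pH 6.0 fell apart by sample group.

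In NRK-52E cells, 5 of the 9 genes fell from pH 7.4 to pH 6.0 and 1 rose, while 36.6% of all genes tested fell and 24.7% rose. The genes that fell were Dusp6, Spry1, Spry4, Spred1 and Etv4, and the one that rose was Dusp10. Etv4 is counted here although it did not pass the filter with NRK-52E cells fitted alone. In NRK-49F cells, 4 fell (Dusp6, Dusp10, Spry1 and Spry4), where 14.4% of all genes fell, and 1 rose (Dusp5), where 14.5% of all genes rose. The median log2 fold change of the 9 genes was -0.81 in NRK-52E cells, with -0.12 over all genes, and -0.17 in NRK-49F cells, with 0.00 over all genes. All calls are from edgeR's quasi-likelihood test with a Benjamini-Hochberg adjusted p under 0.05 over the 14777 genes. The levels at pH 6.0 lay entirely outside those at pH 7.4 for 4 of the 9 genes in NRK-52E cells (Dusp6, Spry1, Spry4 and Spred1, all lower), where 38.6% of all genes did so in either direction. In NRK-49F cells this held for 4 genes as well (Dusp6, Dusp10 and Spry1, lower, and Spry2, higher), where it held for 20.6% of all genes. Markers of cell types moved with pH in the same samples. In NRK-52E cells 7 of the 7 fibroblast markers tested fell, with a summed level of 4901 to 8104 FPM at pH 7.4 and 1830 to 3110 FPM at pH 6.0, among them Pdgfrb (41.4 to 11.2 FPM) and Col3a1 (6149 to 2402 FPM), and Krt8 fell from 499 to 222 FPM. In NRK-49F cells 2 of the 7 fell (Pdgfrb and Col3a1), with a summed level of 10515 to 13632 FPM at pH 7.4 and 7320 to 9880 FPM at pH 6.0, and Krt8 fell from 839 to 566 FPM. Thy1 was at 0 counts in every NRK-52E sample. It did not set the lines apart, since NRK-49F cells had 0 counts of it at pH 7.4 and 0 to 4 at pH 6.0. Of the markers used to estimate NRK-49F signal, Pdgfra had 0 to 2 counts, Vcam1 0 to 3 and Col1a2 1 to 23 in NRK-52E cells at pH 6.0. The part of these markers in the changes of the 9 genes was not tested, apart from the subtraction of NRK-49F signal. In bulk RNA, fewer cells that express a gene and less of its RNA per cell cannot be told apart.

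**Figure D2:**
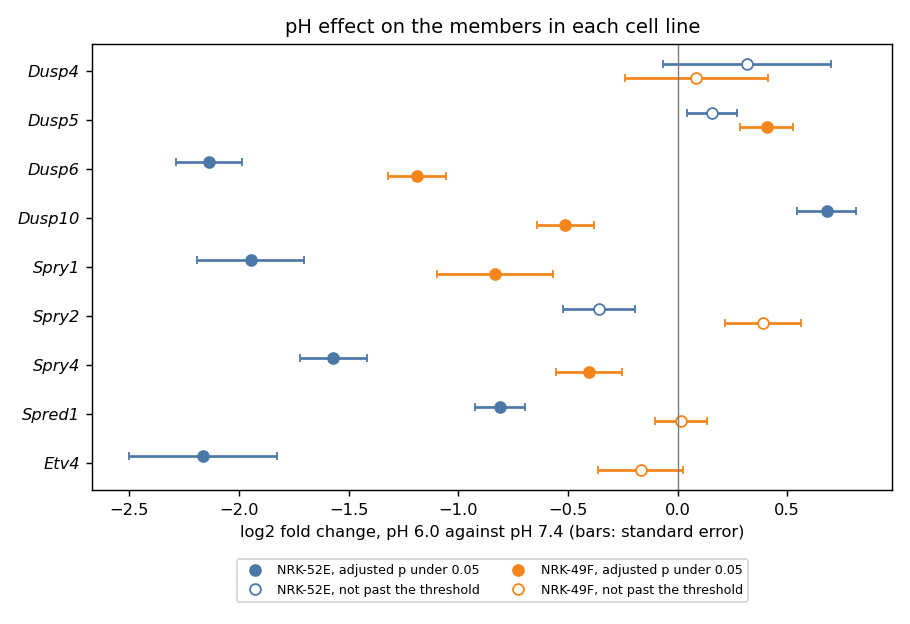
Log2 fold change of each gene from pH 7.4 to pH 6.0 in both cell lines, with bars of 1 standard error, filled where the adjusted p is under 0.05. Dusp6, Spry1 and Spry4 lie left of 0 in both lines, and Dusp10 lies right of 0 in NRK-52E and left of 0 in NRK-49F cells.

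Dusp6 (ENSRNOG00000023896, chromosome 7) encodes a cytoplasmic phosphatase that acts preferentially on ERK and is a classic target of the pathway. In NRK-52E cells its level ran from 5.84 to 9.68 FPM at pH 7.4 (median 7.50) and from 1.23 to 2.50 FPM at pH 6.0 (median 1.58, 25 to 86 counts). Each sample at pH 6.0 thus lay below each sample at pH 7.4. The level was 4.40-fold lower at pH 6.0, a log2 fold change of -2.14 with a standard error of 0.15 and an adjusted p of 2.37e-11 in edgeR's quasi-likelihood test. In NRK-49F cells it ran from 55.1 to 70.3 FPM at pH 7.4 (median 64.7), and the 5 samples at pH 6.0 had 23.6, 25.6, 28.7, 33.9 and 28.1 FPM. The pH values did not overlap there either. The log2 fold change was -1.19 with a standard error of 0.13 (2.28-fold lower, edgeR adjusted p = 3.12e-07). The fall was larger in NRK-52E cells by 0.95 on the log2 scale (interval of 2 standard errors -1.35 to -0.56 for NRK-52E minus NRK-49F, edgeR adjusted p = 0.000451).

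Dusp10 (ENSRNOG00000004003, chromosome 13) encodes a phosphatase directed at p38 and JNK rather than at ERK. It was the single gene of the 9 that rose in NRK-52E cells, from 4.31 ± 0.775 FPM (SD, n = 6; 3.09 to 5.29, median 4.48) to 6.91 ± 1.33 FPM (SD, n = 6; 4.98 to 8.50, median 7.18). The lowest sample at pH 6.0 lay within the range of pH 7.4. On the log2 scale the change was 0.68 with a standard error of 0.13 (edgeR adjusted p = 0.000124). In NRK-49F cells Dusp10 fell from 30.7 ± 3.26 FPM (SD, n = 6; 27.5 to 35.3, median 29.8) to 24.2, 22.2, 20.1, 21.8 and 19.2 FPM, and all samples at pH 6.0 lay below those at pH 7.4. That log2 fold change was -0.51 with a standard error of 0.13 (edgeR adjusted p = 0.00454). Both changes had opposite directions, and the difference between them was 1.19 on the log2 scale (edgeR adjusted p = 1.98e-05).

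Dusp5 (ENSRNOG00000014061, chromosome 1) encodes a nuclear phosphatase that is specific for ERK. In NRK-49F cells it had 8.30 to 11.4 FPM at pH 7.4 (median 10.6), and 16.8 and 15.7 FPM in group 4 and 12.1, 11.2 and 13.3 FPM in group 6 at pH 6.0. The samples of group 4 at pH 6.0 were the highest, and the lowest sample of group 6 lay within the range of pH 7.4. This gave a log2 fold change of 0.41 with a standard error of 0.12 (edgeR adjusted p = 0.0130). This call rested on a sample of group 4 (replicate A042), without which the adjusted p was 0.0541 and the log2 fold change 0.33. In group 6 alone the log2 fold change was 0.27 (edgeR adjusted p = 0.122). The level of Dusp5 in NRK-52E cells was 16.3 ± 2.11 FPM at pH 7.4 against 18.2 ± 1.93 FPM at pH 6.0 (SD, n = 6 each). At pH 7.4 the samples of group 1 (13.5 to 15.3 FPM) lay below those of group 3 (17.5 to 18.8 FPM). The difference between the pH values did not pass the test (log2 fold change 0.16, interval -0.07 to 0.38, edgeR adjusted p = 0.243). The difference between the lines did not pass either (-0.25, interval -0.58 to 0.08, edgeR adjusted p = 0.238).

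Dusp4 (ENSRNOG00000011921, chromosome 16) encodes an inducible nuclear phosphatase of ERK, p38 and JNK. It was scarce in NRK-52E cells, with 0.340 to 1.42 FPM at pH 7.4 (median 1.02, 6 to 45 counts) and 0.314 to 2.02 FPM at pH 6.0 (median 1.09, 6 to 67 counts). In NRK-49F cells it had 7.37 to 9.16 FPM at pH 7.4 and 3.67, 10.1, 10.3, 8.81 and 11 FPM at pH 6.0. Its pH effect did not pass the test in NRK-52E cells (log2 fold change 0.32, interval -0.45 to 1.09, edgeR adjusted p = 0.492) or in NRK-49F cells (0.09, interval -0.56 to 0.73, edgeR adjusted p = 0.881). Both intervals are wide, and the sample with 3.67 FPM stood below the others of its line.

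Sprouty proteins are inducible inhibitors of receptor tyrosine kinase signalling. Spry1 (ENSRNOG00000025371, chromosome 2) had 70.8 to 98.6 FPM in NRK-52E cells at pH 7.4 (median 91.3), and 35.5, 33.4 and 35.3 FPM in group 1 and 11.7, 10.0 and 12.4 FPM in group 3 at pH 6.0. All samples at pH 6.0 lay below those at pH 7.4, and the groups did not overlap at pH 6.0. edgeR gave a log2 fold change of -1.95 with a standard error of 0.25 (3.86-fold lower, edgeR adjusted p = 3.10e-07). In NRK-49F cells Spry1 had 14.9 to 19.6 FPM at pH 7.4 (median 17.5) and 9.38, 9.21, 9.68, 9.92 and 10.5 FPM at pH 6.0, again without overlap. The log2 fold change there was -0.83 with a standard error of 0.26 (edgeR adjusted p = 0.0195). The fall was larger in NRK-52E cells by 1.11 on the log2 scale (edgeR adjusted p = 0.0141).

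Spry4 (ENSRNOG00000013851, chromosome 18) had 12.3 to 18.7 FPM in NRK-52E cells at pH 7.4 (median 17.4) and 3.80 to 7.31 FPM at pH 6.0 (median 5.33), and the pH values did not overlap. The log2 fold change was -1.57 with a standard error of 0.15 (2.97-fold lower, edgeR adjusted p = 5.55e-09). In NRK-49F cells it had 38.1 to 50.6 FPM at pH 7.4 (median 45.7) and 25.4, 32.1, 35.6, 35.8 and 39.3 FPM at pH 6.0. One sample at pH 6.0 thus reached into the range of pH 7.4. On the log2 scale the change was -0.40 with a standard error of 0.15 (edgeR adjusted p = 0.0445), close to the threshold. It no longer passed when any 1 of 9 samples was left out (replicates A023, A039, A040, A042, A043, A051, A053, A054 or A055, with adjusted p up to 0.133), and without a filter on low counts the adjusted p was 0.0612. In group 6 alone it was 0.125. The fall was larger in NRK-52E cells by 1.17 on the log2 scale (edgeR adjusted p = 0.000110).

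Spry2 (ENSRNOG00000010058, chromosome 15) did not pass the test in either line. In NRK-52E cells it had 74.6 to 85.8 FPM at pH 7.4 (median 80.3), 78.8, 83.6 and 88.8 FPM in group 1 at pH 6.0, and 36.3, 41.2 and 45.5 FPM in group 3 at pH 6.0. The samples of group 1 lay at the level of pH 7.4 and those of group 3 far below it. The log2 fold change over both groups was -0.36 with a standard error of 0.16 (edgeR adjusted p = 0.0608), and with the sample group as a block the adjusted p was 0.00570. It also passed when any 1 sample of group 1 at pH 6.0 was left out (replicates A024, A025 or A026, with adjusted p of 0.0302, 0.0198 and 0.0107). In NRK-49F cells Spry2 had 30.0 to 38.7 FPM at pH 7.4 (median 35.5) and 42.6, 43.5, 46.7, 49.4 and 47.4 FPM at pH 6.0, all above pH 7.4. That difference had a log2 fold change of 0.39 with a standard error of 0.17 (edgeR adjusted p = 0.0959), and passed with the sample group as a block (0.0370) and with NRK-49F cells fitted alone (0.00232). The pH effects of the lines differed by -0.75 on the log2 scale (NRK-52E minus NRK-49F, edgeR adjusted p = 0.0143).

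Spred1 (ENSRNOG00000070996, chromosome 3) encodes a membrane-associated inhibitor that brings neurofibromin to Ras. In NRK-52E cells it had 42.1 to 51.1 FPM at pH 7.4 (median 44.0), 32.8, 30.5 and 30.3 FPM in group 1 at pH 6.0, and 22.5, 22.2 and 18.7 FPM in group 3 at pH 6.0. All samples at pH 6.0 lay below those at pH 7.4. This gave a log2 fold change of -0.81 with a standard error of 0.11 (edgeR adjusted p = 1.61e-06). In NRK-49F cells Spred1 had 60.4 ± 6.77 FPM at pH 7.4 (n = 6) against 61.1 ± 4.09 FPM at pH 6.0 (n = 5, ± SD), with a log2 fold change of 0.02 (interval -0.22 to 0.25, edgeR adjusted p = 0.941). The effects of the lines differed by -0.82 on the log2 scale (edgeR adjusted p = 0.000274).

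Etv4 (ENSRNOG00000020792, chromosome 10) was near the lower limit of detection in NRK-52E cells, and it did not pass the filter with these cells fitted alone. It had 0.410 to 2.15 FPM in NRK-52E cells at pH 7.4 (median 1.31, 9 to 57 counts) and 0.0493 to 0.495 FPM at pH 6.0 (median 0.272, 1 to 17 counts). At pH 7.4 the samples of group 1 (1.59, 1.88 and 2.15 FPM) lay above those of group 3 (0.410, 0.873 and 1.02 FPM), and the lowest of these lay within the range of pH 6.0. edgeR gave a log2 fold change of -2.16 with a standard error of 0.34 (edgeR adjusted p = 6.74e-06). The estimated signal of NRK-49F cells came to 16.6% of the Etv4 level in NRK-52E cells at pH 7.4, against at most 3.99% for each of the other 8 genes. It was 45.0% in replicate A021 and 57.8% in A033 and 3.46% to 8.94% in the other 4 samples, and the mean share was 9.47% without A021. In A021 the share was 9.65% for Dusp4, 9.70% for Dusp6 and 8.53% for Dusp10. The fall of Etv4 on the log2 scale was 2.09 without A021, 2.35 without A033 and 1.88 with the signal subtracted, and passed the test each time. In NRK-49F cells Etv4 had 46.3 to 49.8 FPM at pH 7.4 (median 49.2) and 46.8, 40.4, 43.4, 40.9 and 45.6 FPM at pH 6.0. That change did not pass the test (log2 fold change -0.17, interval -0.56 to 0.22, edgeR adjusted p = 0.561), although it did with NRK-49F cells fitted alone (adjusted p = 0.0418). The effects of the lines differed by -2.0 on the log2 scale (edgeR adjusted p = 0.000267).

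The difference of the pH effects between the lines passed the test for 7 of the 9 genes, where 41.4% of all genes passed. For 6 of these (Dusp6, Spry1, Spry2, Spry4, Spred1 and Etv4) the effect in NRK-52E cells was the more negative, and for Dusp10 the more positive. Etv4 is counted here although it did not pass the filter with NRK-52E cells fitted alone. In NRK-52E cells it had 9 to 57 counts at pH 7.4 and 1 to 17 at pH 6.0. The median difference of the 9 genes was -0.82 on the log2 scale, with -0.09 over all genes.

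The lines differed in the level of the 8 genes other than Etv4 at both pH values. Etv4 did not pass the filter with NRK-52E cells fitted alone, and it is left out of these counts. At pH 7.4, 3 of the 8 genes were higher in NRK-52E cells (Dusp5, Spry1 and Spry2), where 35% of all genes were higher, and 5 were lower (Dusp4, Dusp6, Dusp10, Spry4 and Spred1), where 33.9% were lower. At pH 6.0 the calls fell on the same genes in the same directions, where 36.6% of all genes were higher and 38.9% lower. Levels of the lines did not overlap at pH 7.4 for 8 of the 8 genes (50.7% of all genes) and at pH 6.0 for 5 of the 8 (57.3% of all genes). The exceptions at pH 6.0 were Dusp5, Spry1 and Spry2, the genes that were higher in NRK-52E cells. The comparisons at pH 7.4 and at pH 6.0 share samples with the pH effects above and are no separate evidence for them.

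Dusp4 was 8.64-fold lower, Dusp6 8.29-fold lower and Dusp10 7.08-fold lower in NRK-52E cells at pH 7.4. At pH 6.0 the line difference of Dusp6 was larger, 16.0-fold, and that of Dusp10 smaller, 3.10-fold. Spry1 was 5.13-fold higher in NRK-52E cells at pH 7.4 and 2.37-fold higher at pH 6.0. Spry2 was 2.29-fold higher at pH 7.4, and at pH 6.0 its log2 difference was 0.44 (edgeR adjusted p = 0.0247), a call that was lost when any 1 of 5 samples was left out (replicates A024, A025, A026, A042 or A056, with adjusted p up to 0.0888). Dusp5 was higher in NRK-52E cells by 0.65 on the log2 scale at pH 7.4 and by 0.40 at pH 6.0. Ordered by level, Dusp6 and Spry4 ran from NRK-49F at pH 7.4 over NRK-49F at pH 6.0 and NRK-52E at pH 7.4 down to NRK-52E at pH 6.0. For Dusp6 no neighbours in that order overlapped, and for Spry4 the pH values of NRK-49F cells did. Dusp10 and Etv4 were also highest in NRK-49F cells at pH 7.4 and next highest at pH 6.0, and their ranges in NRK-52E cells overlapped between the pH values, as did those of Etv4 in NRK-49F cells. Dusp4 and Spred1 were highest in NRK-49F cells, with overlap between the pH values of that line for both and of NRK-52E cells for Dusp4. Spry1 was highest in NRK-52E cells at pH 7.4, clear of the other 3 conditions, and its range in NRK-52E cells at pH 6.0 overlapped both conditions of NRK-49F cells. Spry2 and Dusp5 ran from NRK-52E down to NRK-49F cells, and for Dusp5 each condition overlapped its neighbour in that order. For Spry2 the last neighbours, NRK-49F cells at pH 6.0 and at pH 7.4, did not overlap.

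Within the sample groups of NRK-52E cells, 7 of the 9 genes passed in group 1 (48.9% of all genes) and 7 in group 3 (57.4% of all genes). Dusp6, Dusp10, Spry1, Spry4, Spred1 and Etv4 passed in both, and in the same direction. Dusp6 had log2 fold changes of -2.09 and -2.21 and Dusp10 of 0.67 and 0.70 in groups 1 and 3. The size of the effect differed between groups 1 and 3 for 4 of the 9 genes, where 10.6% of all genes differed. Spry1 fell by 1.47 on the log2 scale in group 1 and by 2.85 in group 3, a difference of -1.38 (edgeR adjusted p = 1.60e-05). Spry2 had 0.06 in group 1 and -0.97 in group 3, a difference of -1.03 (edgeR adjusted p = 6.87e-05). Spred1 had -0.48 and -1.19, a difference of -0.72 (edgeR adjusted p = 0.00519). Dusp4 had 0.98 and -1.05, a difference of -2.03 (edgeR adjusted p = 0.0409), which rested on few counts and was lost when any 1 of 11 samples was left out (replicates A022, A023, A024, A025, A026, A033, A034, A036, A037, A039 or A054, with adjusted p up to 0.124). In each of these genes the groups differed at pH 6.0 more than at pH 7.4. For Dusp6 the difference between the groups was -0.11 (interval -0.60 to 0.38, edgeR adjusted p = 0.838).

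In NRK-49F cells, 5 of the 9 genes passed in group 4 (Dusp5, Dusp6, Dusp10, Spry1 and Spry4, with 23% of all genes) and 4 in group 6 (Dusp6, Dusp10, Spry1 and Spry2, with 21.2% of all genes). Dusp6 had log2 fold changes of -1.28 in group 4 and -1.16 in group 6, and Spry1 of -0.89 and -0.81. The difference between groups 6 and 4 passed for 0 of the 9 genes and for 0% of all genes in edgeR's quasi-likelihood test. At an unadjusted p under 0.05 it held for 0 of the 9 genes and for 596 of all genes (4.03%).

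**Figure D3:**
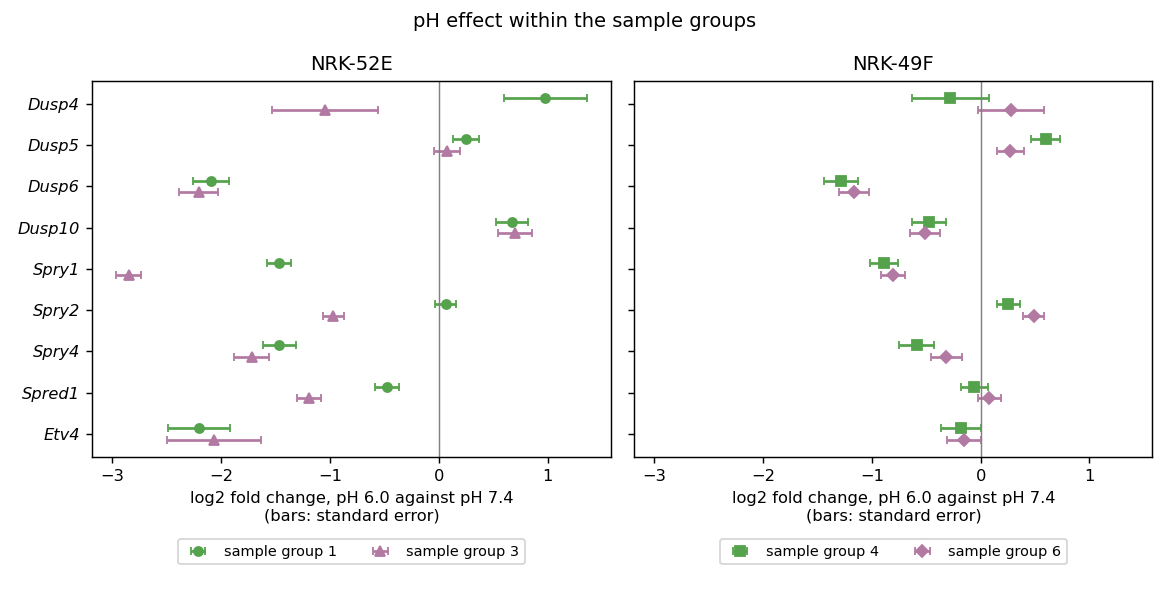
Log2 fold change from pH 7.4 to pH 6.0 within each sample group, with bars of 1 standard error, for NRK-52E (groups 1 and 3) and NRK-49F cells (groups 4 and 6). Dusp6 and Dusp10 of NRK-52E cells lie at the same place in both groups, while Spry1, Spry2 and Spred1 lie further left in group 3.

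Over the 23 samples Dusp6 and Spry4 had a Pearson correlation of 0.979, and Dusp6 and Spry1 one of -0.29. These points share the split by line. With each value taken as its deviation from the mean of its line and pH, the coefficient of Dusp6 and Spry4 was 0.603, that of Dusp6 and Spry1 was 0.458 and that of Spry1 and Spry2 was 0.916. On these deviations 27 of the 28 pairs without Dusp5 had a positive coefficient, and all 8 pairs with Dusp5 had a negative one. The values of a sample share its library and its depth, and the deviations hold the differences between sample groups. The genes most like Dusp6 over the 23 samples, among those with a mean of at least 1 FPM, were Gas6 (Pearson 0.992, Spearman 0.939), C1s (0.991 and 0.982) and Camkk2 (0.990 and 0.955), all of which followed the split by line as well.

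Relatives of these genes were taken from lists written for this work. Of 5 other MAP kinase phosphatases, 3 were tested, of which 2 rose and 0 fell in NRK-52E cells and 0 rose and 1 fell in NRK-49F cells. Over all genes the shares were 24.7% and 36.6% for NRK-52E, and 14.5% and 14.4% for NRK-49F. Dusp8, which acts on p38 and JNK, rose from 10.3 to 22.2 FPM in NRK-52E cells (log2 fold change 1.10, edgeR adjusted p = 3.58e-05) and fell from 14.1 to 7.49 FPM in NRK-49F cells (-0.92, edgeR adjusted p = 0.00183). It thus moved in the directions of Dusp10, and the difference between the lines was 2.02 on the log2 scale (edgeR adjusted p = 5.51e-06). Dusp7, an ERK phosphatase, rose in NRK-52E cells, with a log2 fold change of 0.20 (edgeR adjusted p = 0.0272) and had 0.12 in NRK-49F cells (0.261). Dusp16 did not pass in NRK-52E (0.23, edgeR adjusted p = 0.224) or in NRK-49F cells (-0.02), and Dusp2 and Dusp9 did not pass the filter.

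Of 5 other genes of the Sprouty, Spred and PEA3 families, all tested, 4 fell and 0 rose in NRK-52E cells (36.6% and 24.7% of all genes). In NRK-49F cells 0 of them passed, where 14.4% of all genes fell and 14.5% rose. Etv1 and Etv5 are the other PEA3 factors. Etv1 fell in NRK-52E cells from 3.63 to 0.243 FPM (log2 fold change -4.00, edgeR adjusted p = 3.99e-10) and had -0.14 in NRK-49F cells (0.683). In NRK-52E cells at pH 6.0 Etv1 rested on 1 to 9 counts per sample, near the lower limit of detection. Etv5 fell in NRK-52E cells by 1.14 on the log2 scale (edgeR adjusted p = 2.85e-05) and had 0.04 in NRK-49F cells. Spred2 fell by 1.18 and Spred3 by 0.75 on the log2 scale in NRK-52E cells (edgeR adjusted p = 0.00271 and 0.000895). The difference between the lines passed for Etv1, Etv5 and Spred3 and not for Spred2 (edgeR adjusted p = 0.123). Spry3 did not pass in NRK-52E (-1.43, edgeR adjusted p = 0.195) or in NRK-49F cells (-0.36). It passed the filter through its level in NRK-49F cells. In NRK-52E cells it had 0 to 5 counts at pH 7.4 and 0 to 2 at pH 6.0, too few to judge a change.

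Of 11 other ERK-responsive genes, 6 fell and 2 rose in NRK-52E cells (36.6% and 24.7% of all genes), and 1 fell and 2 rose in NRK-49F cells (14.4% and 14.5%). Among the 11 is a gene that passed the filter through its level in NRK-49F cells. In NRK-52E cells that gene had 0 to 17 counts at pH 7.4 and 0 to 5 at pH 6.0, too few to judge a change. Fosl1, an AP-1 subunit, went from 38.5 to 112 FPM in NRK-49F cells (log2 fold change 1.54, edgeR adjusted p = 1.45e-09) and had 0.08 in NRK-52E cells (0.677). Thus Fosl1 rose in NRK-49F cells while Dusp6, Spry1 and Spry4 fell there. Myc fell by 0.93 on the log2 scale in NRK-52E cells (edgeR adjusted p = 3.96e-09) and had 0.20 in NRK-49F cells (0.0961). Lif, a cytokine gene, rose by 1.06 in NRK-52E cells (edgeR adjusted p = 6.93e-08). Ier3, an immediate early gene, fell by 0.36 in NRK-52E cells (edgeR adjusted p = 0.00278) and rose by 0.90 in NRK-49F cells (edgeR adjusted p = 4.97e-07).

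Of 17 genes of the ERK cascade itself, 15 were tested, of which 7 rose and 3 fell in NRK-52E cells (24.7% and 36.6% of all genes), and 2 rose and 2 fell in NRK-49F cells (14.5% and 14.4%), the latter near the shares of all genes. Map2k1, the kinase MEK1 that activates ERK, rose in NRK-52E cells by 0.66 on the log2 scale (edgeR adjusted p = 2.20e-10) and by 0.17 in NRK-49F cells (0.0215). Shc1, an adaptor between receptors and Ras, fell by 0.88 in NRK-52E cells (edgeR adjusted p = 7.50e-09) and had -0.09 in NRK-49F cells. Ksr1, a scaffold of the cascade, fell by 1.04 in NRK-52E cells (edgeR adjusted p = 4.95e-05) and had -0.42 in NRK-49F cells (0.117).

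Of 14 genes of the p38 and JNK cascades, 10 were tested, of which 2 rose and 5 fell in NRK-52E cells (24.7% and 36.6% of all genes) and 3 rose and 0 fell in NRK-49F cells (14.5% and 14.4%). Among the 10 is a gene that passed the filter through its level in NRK-49F cells. In NRK-52E cells that gene had 0 to 4 counts at pH 7.4 and 0 at pH 6.0. Mapk14, which encodes the p38 alpha kinase, fell by 0.41 in NRK-52E cells (edgeR adjusted p = 1.67e-05) and rose by 0.20 in NRK-49F cells (0.0401). Mapk9, a JNK gene, fell by 0.38 in NRK-52E cells (edgeR adjusted p = 0.000888) and rose by 0.37 in NRK-49F cells (0.00521). For both of these kinases the difference between the lines passed (edgeR adjusted p = 3.07e-05 for Mapk14 and 7.69e-05 for Mapk9). Map2k3, which activates p38, rose by 0.45 and Mapkapk2, a kinase that p38 activates, by 0.50 in NRK-52E cells (edgeR adjusted p = 4.83e-06 and 3.00e-06). They had 0.08 and 0.05 in NRK-49F cells and did not pass there.

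**Figure D4:**
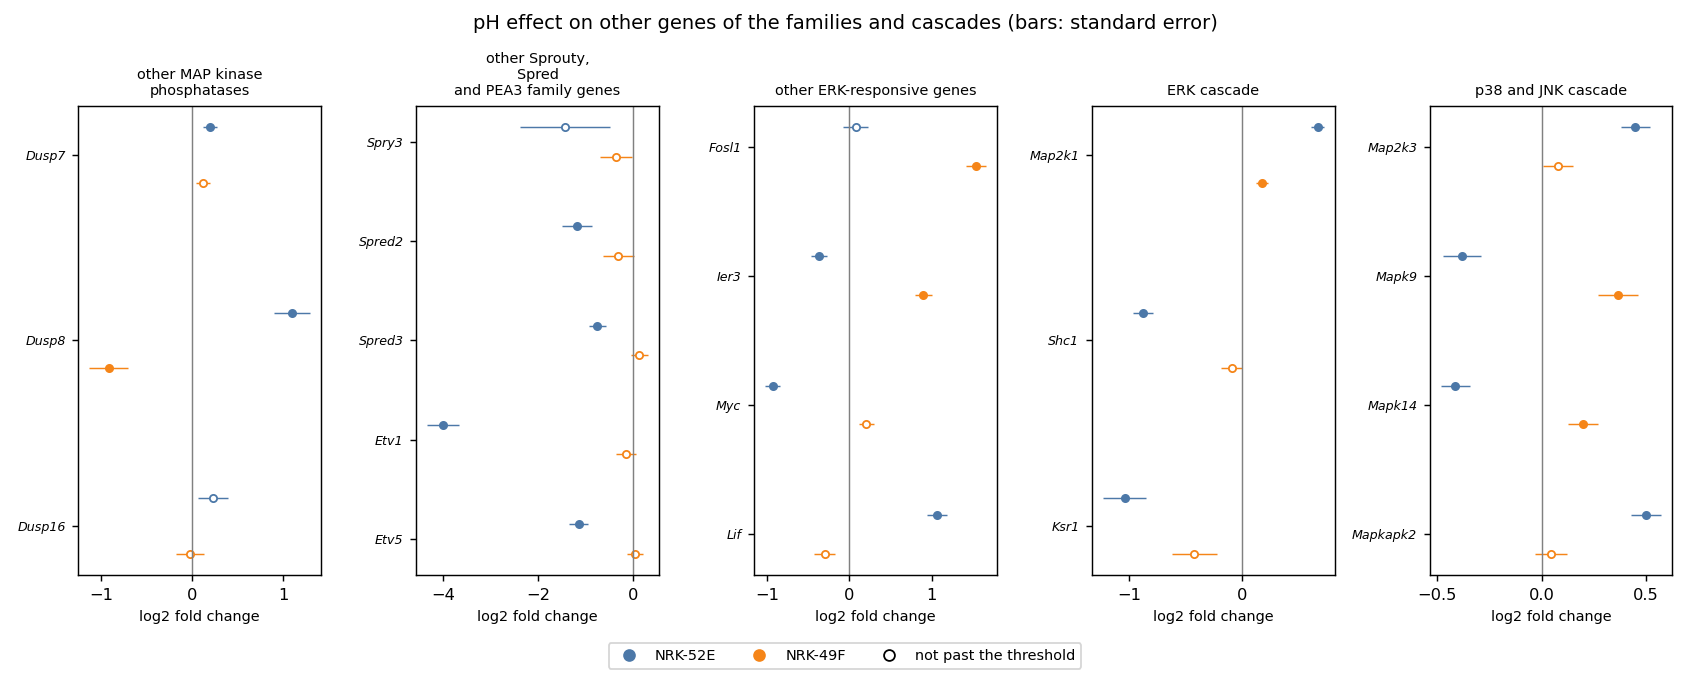
Log2 fold change from pH 7.4 to pH 6.0 of the genes of each list that are named in the text and were tested, in NRK-52E and NRK-49F cells, with bars of 1 standard error, filled where the adjusted p is under 0.05. The Sprouty, Spred and PEA3 relatives lie left of 0 in NRK-52E cells and did not pass the test in NRK-49F cells. Spry3 rested on at most 5 counts per sample in NRK-52E cells.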

How the data were processed

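RNA of 23 rat samples was analysed. The deposited values were raw counts per gene, which the authors made by mapping read pairs with HISAT2 2.1.0 and counting them on exons with featureCounts, multi-mapping reads included. Genes with near-identical copies can therefore hold reads of paralogs. The submitters' processing notes name the build rn6 and the paper's methods rn7, and a strand setting is not given in the sources used here. Another 13 columns of per-sample values were not used, since no label matched them. Groups follow the labelled cell line and pH.

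All samples entered 1 model of the 4 conditions, fitted by edgeR 4.0.16 in R 4.3.3 (filterByExpr at 10 counts and a total of at least 15, TMM scaling, quasi-likelihood test, Benjamini-Hochberg threshold 0.05), and a model with 8 conditions for sample groups. Standard errors were computed from the F statistic. FPM came from edgeR's cpm function. Tested on simulated data for the pH effect in NRK-52E, the steps recovered 172 of 194 changed genes with 8 others called among 14396. The simulated data held no difference between lines or sample groups, so these figures do not give the error rates of the real data. Alternatives were RLE scaling, DESeq2 1.42.0, no filter beyond 1 count, each line or sample group alone, the sample group as a block, each sample left out, replicates A021 and A051 left out together and, chosen after seeing the data, subtraction of NRK-49F signal. The genes and lists were chosen with earlier results of these data known. All 9 genes are named, and of each other list up to 4 genes with the smallest adjusted p in either line and the relatives by family. An item among these was tested with the others and is not reported here. Python 3.11.15 with matplotlib 3.10.9 drew the figures.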

Additional observations from a re-analysis of the deposited data

Results flagged for a closer look

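The pH effect differed between the lines for 7 of the 9 genes, by edgeR's quasi-likelihood test of the difference itself (NRK-52E minus NRK-49F, log2 scale). It did so for 41.4% of all genes. The differences were -0.95 for Dusp6, 1.19 for Dusp10, -1.11 for Spry1, -0.75 for Spry2, -1.17 for Spry4, -0.82 for Spred1 and -2.0 for Etv4. Within NRK-52E cells, the effect differed between sample groups 3 and 1 by -2.03 for Dusp4, -1.38 for Spry1, -1.03 for Spry2 and -0.72 for Spred1. Between these groups 10.6% of all genes differed. The call of Dusp4 rested on few counts and was often lost with 1 sample left out (edgeR adjusted p up to 0.124).

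Of 36 groups of samples, 3 had a sample far from the others. Dusp5 had 21.8 FPM in NRK-52E replicate A038 at pH 6.0 and 8.30 FPM in NRK-49F replicate A053 at pH 7.4. Etv4 had 46.3 FPM in the same replicate A053. Chance flags about 1 in 20 groups.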

How the results depend on the processing

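RLE scaling, DESeq2 and subtraction of the NRK-49F signal changed no call of the 9 genes. Among the values of single genes, 1709 kept their direction and side of the threshold, 23 changed direction, 30 lost and 10 gained a call. The number of genes that rose was 2 in NRK-52E cells in sample group 1 alone, and 2 in NRK-49F cells both with the sample group as a block and with the line fitted alone. It ranged from 0 to 1 in NRK-49F cells with 1 replicate left out, and was 0 without A042. Directions changed for values that had not passed the test, namely Spry2 (0.0636 in group 1 alone) and Dusp4 (-1.05 in group 3 alone) in NRK-52E cells, and Spred1 (-0.0570) and Dusp4 (-0.28) in group 4 alone in NRK-49F cells. With 1 replicate left out, the pH effect in NRK-49F cells ranged from -0.0273 to 0.0628 for Spred1 and from -0.0066 to 0.28 for Dusp4, and the difference between the lines for Dusp4 from -0.0166 to 0.42. The difference between groups 3 and 1 ranged from -0.15 to 0.15 for Dusp10, from -0.61 to 0.60 for Etv4 and from -0.28 to 0.15 for Dusp6, and that between groups 6 and 4 from -0.11 to 0.0645 for Dusp10, from -0.0012 to 1.45 for Dusp4 and from -0.0717 to 0.14 for Etv4. With NRK-52E cells fitted alone, Etv4 did not pass the filter and gave no value. The causes were not tested. No paired analysis was possible because no replicate code occurs at both pH values. Depth limits Etv4 and Dusp4 in NRK-52E cells, which rested on 1 to 67 counts per sample.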
